A study of Rattus norvegicus with 6 samples.

Results

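Icam1 and Vcam1, 2 of the 32623 genes in the count table, were followed in esophageal tissue from 3 untreated rats and 3 rats with a mechanical injury of that organ. Both were chosen by name, as the leukocyte adhesion genes with identifiers ENSRNOG00000020679 (Icam1) and ENSRNOG00000014333 (Vcam1), and both were among the 14481 genes that passed the filter on low counts. All 6 animals were male wild-type Sprague-Dawley rats, an outbred laboratory strain, aged 8 to 10 weeks. In the injured group a customized 3D-printed device was passed through the mouth to 9 to 10 cm and moved back and forth for 8 to 10 friction cycles, while the control group was left untreated and no sham insertion is described. Full-thickness tissue was collected on day 28, and each polyadenylated RNA library came from 1 animal. The series concerns a model of esophageal stricture, a scarring that narrows the organ.

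ICAM-1 and VCAM-1 are immunoglobulin-family proteins on the cell surface that hold leukocytes to the vessel wall. ICAM-1 is bound by the leukocyte integrins LFA-1 and Mac-1, and VCAM-1 by the integrin VLA-4 of lymphocytes, monocytes and eosinophils. Inflamed endothelium displays both, cytokines such as TNF and interleukin-1 raise the transcription of both through NF-κB, and epithelial cells, fibroblasts and leukocytes can also carry ICAM-1. In the esophagus such molecules serve the entry of leukocytes from vessels of the submucosa and lamina propria.

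The sequences before the RefSeq start sites of the members are shown because NF-κB is the textbook regulator of both genes. Whether NF-κB had a part in the levels measured here was not tested. The sequences come from RefSeq on build GRCr8, which is not the build of the counts (Rnor_6.0), and both genes were found there by symbol. The Icam1 stretch is on the plus strand at chr8:27829595-27829687, which is base -250 to base -158 from the start site of the promoter table. It was ended there because the RefSeq gene table places the outermost start of Icam1 at the next base, so that the rest of the window up to the promoter table's start lies within the annotated gene. The Vcam1 stretch is on the minus strand at chr2:206742784-206743033, base -250 to base -1. Capitals mark matches to the motifs searched.
Icam1: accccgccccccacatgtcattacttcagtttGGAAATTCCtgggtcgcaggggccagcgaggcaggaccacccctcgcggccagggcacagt
Vcam1: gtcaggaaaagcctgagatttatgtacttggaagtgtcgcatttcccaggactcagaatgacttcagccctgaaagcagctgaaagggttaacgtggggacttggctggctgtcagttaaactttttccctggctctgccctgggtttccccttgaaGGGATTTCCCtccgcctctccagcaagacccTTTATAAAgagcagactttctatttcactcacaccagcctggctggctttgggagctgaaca

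Each 300-base window, from 250 bases before to 50 after the start, was searched on both strands for the NF-κB consensus, for GGANNTTCC, for TATAAA and for TGANTCA, the AP-1 site. The Vcam1 window held the NF-κB consensus at base -93 to -84, a motif found in 7.51% of 33469 windows of the same length. The Icam1 window held no match to that consensus but held GGANNTTCC, a shorter form of the site, at base -218 to -210, which 4.09% of all windows contained. TATAAA occurred in both windows, at base -53 to -48 in Icam1, which is downstream of the outermost annotated start, and at base -60 to -55 in Vcam1, where a second match on the other strand overlapped it, and in 14.2% of all windows. TGANTCA was in neither window and in 7.33% of all windows. The windows differed in base composition: that of Icam1 had a GC content of 65.3% and 20 CG dinucleotides, and that of Vcam1 had 50.3% and 4, against medians of 51.7% and 7 over all windows. These matches describe letters in a window and were not measured as binding. In the RefSeq gene order Icam1 is followed by its relatives Icam4 and Icam5, and 0 annotated genes overlapped either member.

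The libraries held between 14181903 and 18376578 counts. Of the 14481 genes tested over the 6 libraries, 103 were higher and 93 lower in injured animals (edgeR quasi-likelihood test, Benjamini-Hochberg adjusted p under 0.05). A fit that added the replicate number as a block called 287 higher (1.98% of genes) and 259 lower, and scaling by library size alone gave 129 higher and 67 lower. Control replicate 2 stood apart from control replicate 1, with a Spearman correlation over genes of 0.936. Control replicate 3 correlated at 0.972 with control replicate 1 and at 0.964 with control replicate 2. Injured libraries correlated with each other at 0.971 to 0.987. Control and injured libraries correlated at 0.926 to 0.968, so some pairs across the groups were more alike than some pairs of controls. Control replicate 2 correlated with the injured libraries at 0.926 to 0.932, and control replicate 3 at 0.957 to 0.968. The count table lists identifiers only, and 0 of them could be matched to a symbol in the reference table, so the tissue was not checked against marker genes, and the other adhesion, cytokine and cell type genes that had been listed were not tested.

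The esophagus of each injured animal had more Icam1 transcript than that of any control animal. The fitted difference between the groups was 2.45-fold, but it stood just outside the threshold set over all genes. The Vcam1 values of the groups overlapped and did not pass the test, with an interval that reached from a 1.58-fold decrease to a 1.29-fold increase. In bulk tissue, a different number of cells that carry a transcript and a different amount of transcript per cell cannot be told apart. Levels are given in CPM, the count of a gene scaled to library size with a correction by TMM (trimmed mean of M-values).

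Among control replicates 1, 2 and 3, Icam1 had 186, 156 and 157 counts, and among injured replicates 1, 2 and 3 it had 396, 564 and 358. Scaled to library size these were 11.2, 8.71 and 11.3 CPM without injury and 21.1, 34.3 and 21.0 CPM with it. The lowest injured animal lay above the highest control, so that the groups did not overlap, and injured replicate 2 was the highest of all 6. Non-overlapping groups with the injured animals higher were found in 13.5% of all tested genes, so this separation is not rare here.

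Icam1 averaged 10.4 ± 1.46 CPM in the control group, against 25.4 ± 7.63 CPM in the injured group (SD, n = 3 each). This is a log2 fold change of 1.29 (standard error 0.24) with a 95% interval of 0.72 to 1.86, that is 1.65-fold to 3.62-fold. The unadjusted p was 0.0011 (edgeR quasi-likelihood test), and 9.98% of genes were higher at an unadjusted p under 0.05. The adjusted p of Icam1 was 0.056 (edgeR), against a threshold of 0.05 that 1.35% of all tested genes passed in either direction, 0.711% of them higher. Icam1 ranked 282 of the 14481 genes by p, and 96.1% of tested genes had a smaller (or more negative) log2 fold change. An exact permutation test of Icam1 alone over the 20 splits of the 6 animals gave a two-sided p of 0.1, the smallest this design allows.

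**Figure D1:**
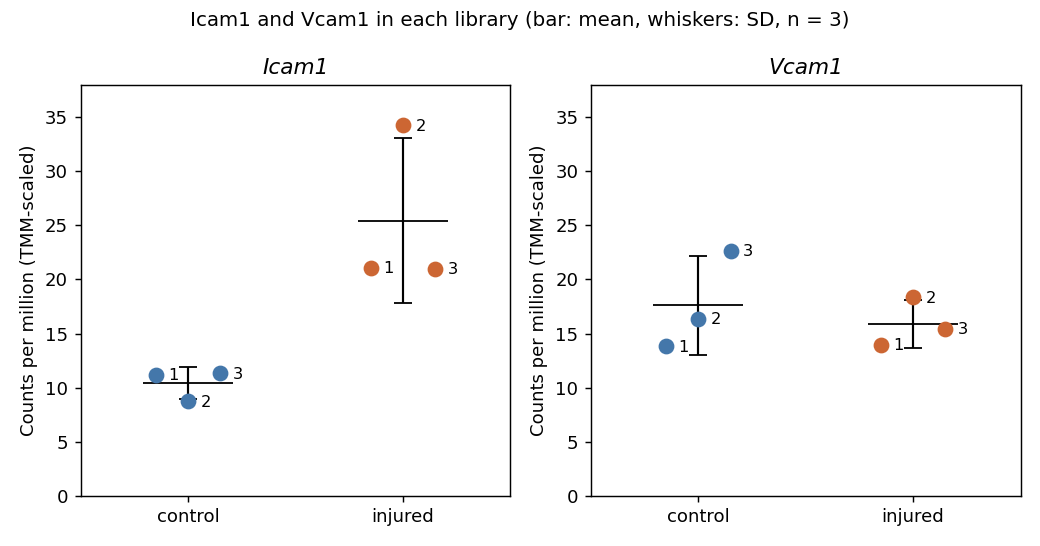
CPM (TMM-scaled, vertical axis from 0) of Icam1 (left) and Vcam1 (right) in 3 control and 3 injured libraries, numbered by replicate, with the mean as a bar and the SD as whiskers. All injured points of Icam1, from 21.0 to 34.3 CPM, lie above the control points, from 8.71 to 11.3 CPM, whereas the points of Vcam1 overlap.

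Whether Icam1 passed the threshold depended on the tool and on the filter. DESeq2 gave a log2 fold change of 1.30 with an adjusted p of 0.00015, and called 4.5% of the genes it tested higher. Limma-voom with sample weights gave 1.11 with an adjusted p of 0.04997, where 2.38% of genes were called higher, and edgeR without a filter gave 1.29 with an adjusted p of 0.045, where 0.673% were. In the other 13 of 16 alternatives the adjusted p lay between 0.053 and 0.21. All 16 alternatives gave a higher level in injured animals, which groups that do not overlap make nearly certain.

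Injured replicate 2 carried part of the size of the Icam1 difference. Without that library the log2 fold change came to 1.02, with standard error 0.18 (edgeR, unadjusted p = 0.0014, adjusted p = 0.14), and without any one of the other 5 libraries it lay between 1.18 and 1.41. Over the 9 possible pairs of an injured and a control animal, the ratio of Icam1 CPM ranged from 1.85 to 3.93, with a median of 2.41. Among injured animals the SD of log2 CPM of Icam1 was 0.40, larger than in 79.9% of tested genes, and among controls it was 0.21, larger than in 42.3%. Counting error alone would give a coefficient of variation of 4.21% to 8.01% at these Icam1 counts, below the observed 14.1% in controls and 30.0% in injured animals.

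For Vcam1 the counts of control replicates 1, 2 and 3 were 230, 293 and 314, and those of injured replicates 1, 2 and 3 were 262, 302 and 264. Scaled, these were 13.8, 16.4 and 22.6 CPM without injury and 14.0, 18.3 and 15.5 CPM with it. The injured values lay within the range of the controls, whose lowest and highest animals were replicates 1 and 3.

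Vcam1 averaged 17.6 ± 4.55 CPM in the control group, against 15.9 ± 2.23 CPM in the injured group (SD, n = 3 each). This is a log2 fold change of -0.14 (standard error 0.22) with a 95% interval of -0.66 to 0.37 (edgeR quasi-likelihood test, unadjusted p = 0.53, adjusted p = 0.74). The interval holds both decreases and increases of Vcam1, so the data do not show that its level was the same. The exact permutation test over the 6 animals gave a two-sided p of 0.7. In absolute size the change was larger than that of 30.3% of tested genes.

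The sign of the small Vcam1 difference rested on control replicate 3, the highest library. Without it the log2 fold change came to 0.087, with standard error 0.18 (edgeR, adjusted p = 0.83). In the other 15 alternatives it lay between -0.31 and -0.059, and none of the 16 gave an adjusted p under 0.32. The SD of log2 CPM of Vcam1 was 0.36 among controls and 0.20 among injured animals, the reverse order of Icam1. The coefficient of variation was 25.9% and 14.0%, against 5.64% to 6.59% from counting error alone.

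**Figure D2:**
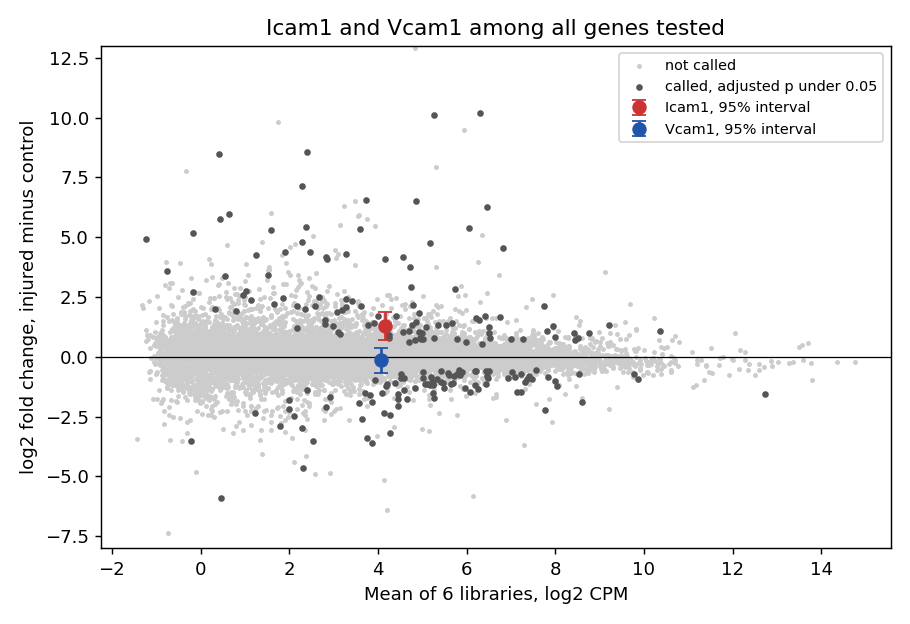
Log2 fold change of injured minus control (vertical axis) against the mean over 6 libraries in log2 CPM (horizontal axis) for the 14481 tested genes, with the 196 called genes in dark grey and the 95% intervals of Icam1 (red) and Vcam1 (blue). Both members have near-median abundance, Icam1 lies at 1.29 among called and uncalled genes of that size, and Vcam1 lies near 0.

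Icam1 and Vcam1 were of similar abundance within the table, above 49.3% and 47.7% of tested genes by mean CPM, and their fitted biological coefficients of variation were also close, at 0.233 and 0.218. The standard errors of their log2 fold changes, 0.24 and 0.22, were alike too. Both measures are moderated with information from other genes, and the trend of that coefficient at their abundance was 0.248 and 0.251. Part of the closeness therefore comes from the method. The SD of log2 CPM, which is not moderated, was 0.21 in controls and 0.40 in injured animals for Icam1. For Vcam1 it was 0.36 and 0.20. Transcript lengths were not used here, so the levels of Icam1 and Vcam1 are not compared with each other within a library. The ratio of their counts can be compared across libraries, because length and library scaling cancel.

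In controls there were 0.809, 0.532 and 0.5 Icam1 counts per Vcam1 count in replicates 1 to 3, and in injured animals there were 1.51, 1.87 and 1.36. The ratio was higher in every injured library than in any control library, so the groups did not overlap. Of single genes, 13.5% of those tested separated in this way, and the share among ratios of 2 genes was not computed. The fitted log2 fold changes were 1.29 for Icam1 and -0.14 for Vcam1, so the ratio largely repeats the Icam1 difference. The absolute value of the ratio, and whether it lies above or below 1, depends on the lengths of the transcripts and is not read here. The mean ratio was 0.614 ± 0.170 in controls and 1.58 ± 0.26 in injured animals (SD, n = 3 each), a 2.61-fold difference between geometric means. On the log2 scale with a prior count of 2, the ratio was 1.37 higher in injured animals (exact two-sided permutation test, p = 0.1, the smallest that 20 splits allow; 1 such ratio was tested). The permutation test of this ratio cannot reach a p of 0.05 with 3 animals in each group. Leaving out 1 library at a time gave values of 1.24 to 1.59.

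**Figure D3:**
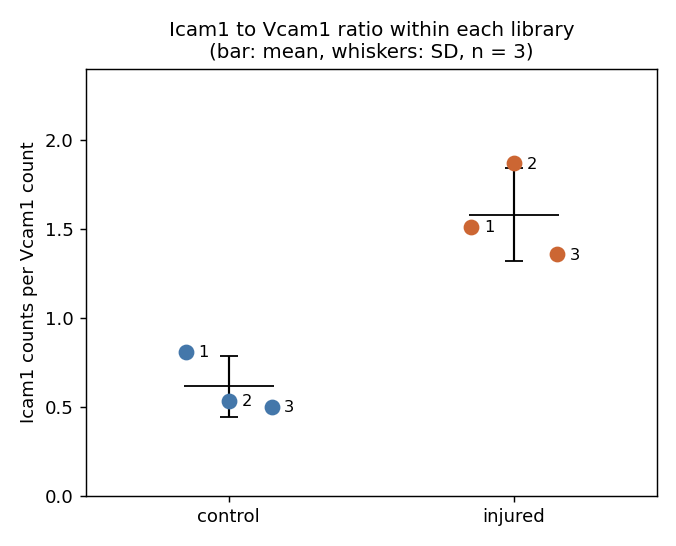
Icam1 counts per Vcam1 count (vertical axis from 0) within each of 3 control and 3 injured libraries, numbered by replicate, with the mean as a bar and the SD as whiskers. The control libraries lie at 0.5 to 0.809 and the injured libraries, all higher, at 1.36 to 1.87.

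Control and injured animals share the replicate numbers 1 to 3. Between animals of the same number, the injured to control ratio of Icam1 CPM was 1.89, 3.93 and 1.85 for numbers 1 to 3. That of Vcam1 was 1.01, 1.12 and 0.683. Number 2 gave the highest ratio for both genes, from the lowest control and the highest injured library for Icam1. With the number as a block, the log2 fold change was 1.26 for Icam1 (edgeR, adjusted p = 0.062) and -0.12 for Vcam1 (adjusted p = 0.70), so neither gene crossed the threshold.

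**Figure D4:**
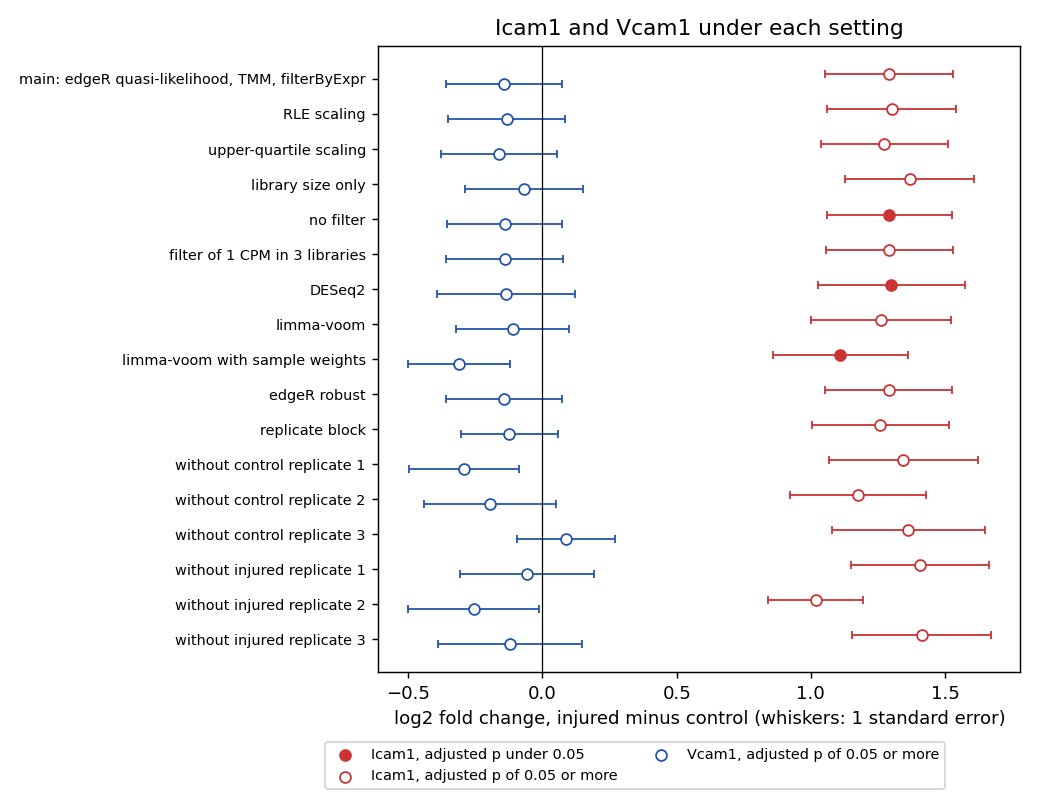
Log2 fold change of injured minus control (horizontal axis, whiskers are 1 standard error) of Icam1 (red) and Vcam1 (blue) under the main test and 16 alternatives, filled where the adjusted p was under 0.05. Icam1 stays between 1.02 and 1.41 and is filled in 3 alternatives, and Vcam1 stays between -0.31 and 0.087 and is never filled.

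The gene whose pattern over the 6 libraries was most like that of each member was sought among the 13658 other genes that averaged 1 CPM or more, by Pearson's r of log2 CPM. For Icam1 this was ENSRNOG00000047783 (r = 0.998), a gene of low abundance, at 0.720, 0.391 and 0.721 CPM without injury (replicates 1, 2 and 3) and 1.97, 3.89 and 1.87 CPM with it. It was chosen for this likeness, so its order over the libraries is a description, and its control values were all below the 1 CPM asked of the mean. Its log2 fold change was 2.07 (edgeR, adjusted p = 0.081), outside the threshold, and the choice by likeness makes this no separate evidence. An r above 0.9 with Icam1 was found for 510 genes, and this r takes in the difference between the groups as well as the spread within them. For Vcam1 the most similar gene was ENSRNOG00000009997 (r = 0.989), at 37.4, 42.9 and 54.5 CPM without injury and 38.1, 44.3 and 40.0 CPM with it, and 77 genes had an r above 0.9. Its log2 fold change was -0.14 (edgeR, adjusted p = 0.65), and the same limit holds.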

How the data were processed

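The authors deposited whole-number counts per Ensembl gene, with no normalization. The submitters' processing notes name HISAT2 2.2.1, HTSeq 0.6.1, fastp 0.24.1, bcl2fastq 2.20.0.422, DESeq2 1.50.2 and build Rnor_6.0. What each tool did and how it was set (strand, annotation release) is not given in the sources used here. Libraries were grouped by title. Icam1 and Vcam1 were paired with their identifiers as the gene pair was defined for this work, not by a reference table, and members and lists were chosen with earlier results of these data known. The pathway and cell type lists were not tested, for want of symbols. The genes named were the 2 members and, for each, the identifier most correlated with it.

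The filter was filterByExpr (minimum count 10, minimum total 15) in edgeR 4.0.16 under R 4.3.3, the scaling was TMM, and the quasi-likelihood F test had no term besides group. Benjamini-Hochberg adjustment ran over all 14481 genes. Standard errors were taken from F, as the size of the log2 fold change over the root of F. P-values of edgeR, DESeq2 and limma-voom rest on the spread between these 6 animals, moderated with information from the other genes. The permutation p-values use only the values of these 6 animals. The deviations of same-numbered libraries from their group means had correlations across genes of 0.366, 0.365 and 0.104. All were above the limit of 0.1 used here, so a blocked fit is also given. Libraries of different numbers were not compared in this way, so these values do not show a link by number. No label says what a number stands for. Replicates differed by more than sampling noise (chi-square per degree of freedom of at least 16.8). Alternatives were other scalings, filters, DESeq2 1.42.0, limma-voom 3.58.1, robust edgeR, the block and leaving out each library.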

Additional observations from a re-analysis of the deposited data

How the results depend on the processing

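Icam1 was past the threshold in 3 of 16 alternatives, with a log2 fold change of 1.29 without a filter, 1.30 with DESeq2 and 1.11 with weighted limma-voom, against 1.29. Leaving out 1 library gave 1.02 to 1.41 for Icam1 and -0.29 to 0.087 for Vcam1, which changed sign (0.087) without control replicate 3. Scaling alone moved Icam1 between 1.27 and 1.37 and Vcam1 between -0.16 and -0.069, while the median of all genes stayed between -0.030 and 0.064. The log2 count ratio lay between 1.24 and 1.59 in its 9 alternatives. Its groups do not overlap and the blocked mean equals the unblocked one by construction, so its direction could not change. The number of genes higher and lower, 103 and 93, became 748 and 634 with DESeq2, 344 and 494 with weighted limma-voom, 287 and 259 with the replicate block, 55 and 69 with limma-voom and 129 and 67 with library size alone. Leaving out 1 library gave 2 to 134 higher and 0 to 200 lower, with 2 and 0 without injured replicate 3. The cause was not tested. The block changed no call of Icam1 or Vcam1. At 156 to 564 counts per library, counting error was below the spread between animals for both genes.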
